A study of Gallus gallus with 10 samples.

Results

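Translation initiation and elongation factors are the cytosolic proteins that place the ribosome on an mRNA and move it along. The genes described here were those whose current symbol, taken from the platform gene identifier, starts with EIF or EEF and a digit. They came to 54 of the 13051 genes measured on Affymetrix chicken arrays, 44 named for initiation and 10 for elongation. RNA was total RNA from dissected whole brains of chicken embryos, with 5 male samples and 5 female samples by the labels and 1 array per sample. Male replicate 1 is called male in its description, but its title gives neither a sex nor the letter that the titles of the other 9 samples carry. The labels give no treatment beyond dissection, no strain and no embryonic age, and do not say whether each sample was a separate embryo, so a p-value here reflects only sample-to-sample spread, part of which can be technical. Male birds carry ZZ and females ZW, and no other difference between the groups is given. For each gene the probe set brightest on average was used, as log2(intensity + 16), and every level and difference below is on that scale.

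In initiation, the factor eIF2 carries the initiator tRNA to the small ribosomal subunit, eIF3 holds the subunit together with the factors around it, and eIF4F binds the mRNA cap and unwinds the leader. Phosphorylation of eIF2 alpha slows this step by holding the exchange factor eIF2B, and the eIF4E binding proteins slow it by holding the cap binder. In elongation, eEF1A delivers aminoacyl-tRNA and eEF2 moves the ribosome by a codon. In mammals, eEF1A2 takes over from eEF1A1 in mature neurons and muscle.

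The factors showed no sex difference that passed the test. Of the 54 genes, 0 were higher in males, where 1.59% of all genes were, and 0 were higher in females, where 0.207% were (limma, Benjamini-Hochberg adjusted p under 0.05 over all genes). Of the 207 genes higher in males, 201 were on Z, where no member was placed. On autosomes 18 of 12229 genes passed in either direction, so a count of 0 among 54 does not set the members apart. At an unadjusted p under 0.05, 1 member, EIF5B, was lower in males, against 3.75% of autosomal genes lower and 1.33% higher in males. On the brightest probe set of each gene, in 0 members did all 5 males lie above all 5 females, an order that 0.188% of autosomal genes showed, and in 0 members did all females lie above all males, which 0.662% of autosomal genes showed. The difference was positive in 22 members and negative in 32. Its median was -0.019, beside -0.016 over 8728 expressed autosomal genes, where expressed means that the average level reached 9.33, the middle value of all tested probe sets.

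No member was placed on a sex chromosome. By platform gene identifier, 50 were placed on 22 autosomes, 0 on Z and 0 on W, and 4 (EEF1D, EEF1G, EIF3G and EIF4E1B) were unplaced. In the reference gene table, 0 of 59 genes with a matching symbol were on Z or W. A comparison of Z with autosomal members therefore had no Z side. EIF1AX and EIF2S3, whose human counterparts are on X, were on chicken chromosome 1. EIF1AX, which guides scanning for the start codon, read 15.038, 15.111, 14.935, 15.036 and 14.997 in males and 14.843, 14.994, 14.893, 15.001 and 15.059 in females. The groups overlapped on this probe set, with a difference of 0.07 (SE 0.06, limma adjusted p = 0.9). EIF2S3, the gamma subunit of eIF2 that binds the initiator tRNA, read 15.54, 15.57, 15.55, 15.66 and 15.51 in males and 15.53, 15.57, 15.58, 15.66 and 15.58 in females. Its difference was -0.02 (SE 0.05, limma adjusted p = 0.972), and its 95% interval ran from -0.14 to 0.10.

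The intervals show how large a difference these arrays could have missed. The 95% limma interval lay inside a 1.5-fold change either way for 49 of 54 members, beside 85.9% of expressed autosomal genes. The median difference over the 445 expressed Z genes was 0.47, and 49 of 54 members had an upper bound under that value, as had 88.6% of expressed autosomal genes. The members whose upper bound reached it were EIF2D, EIF2AK2, EIF2AK3, EIF4E1B and EEF2K. Those not inside 1.5-fold were EIF2D, EIF2AK2, EIF4E3, EIF4E1B and EEF2K.

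**Figure D1:**
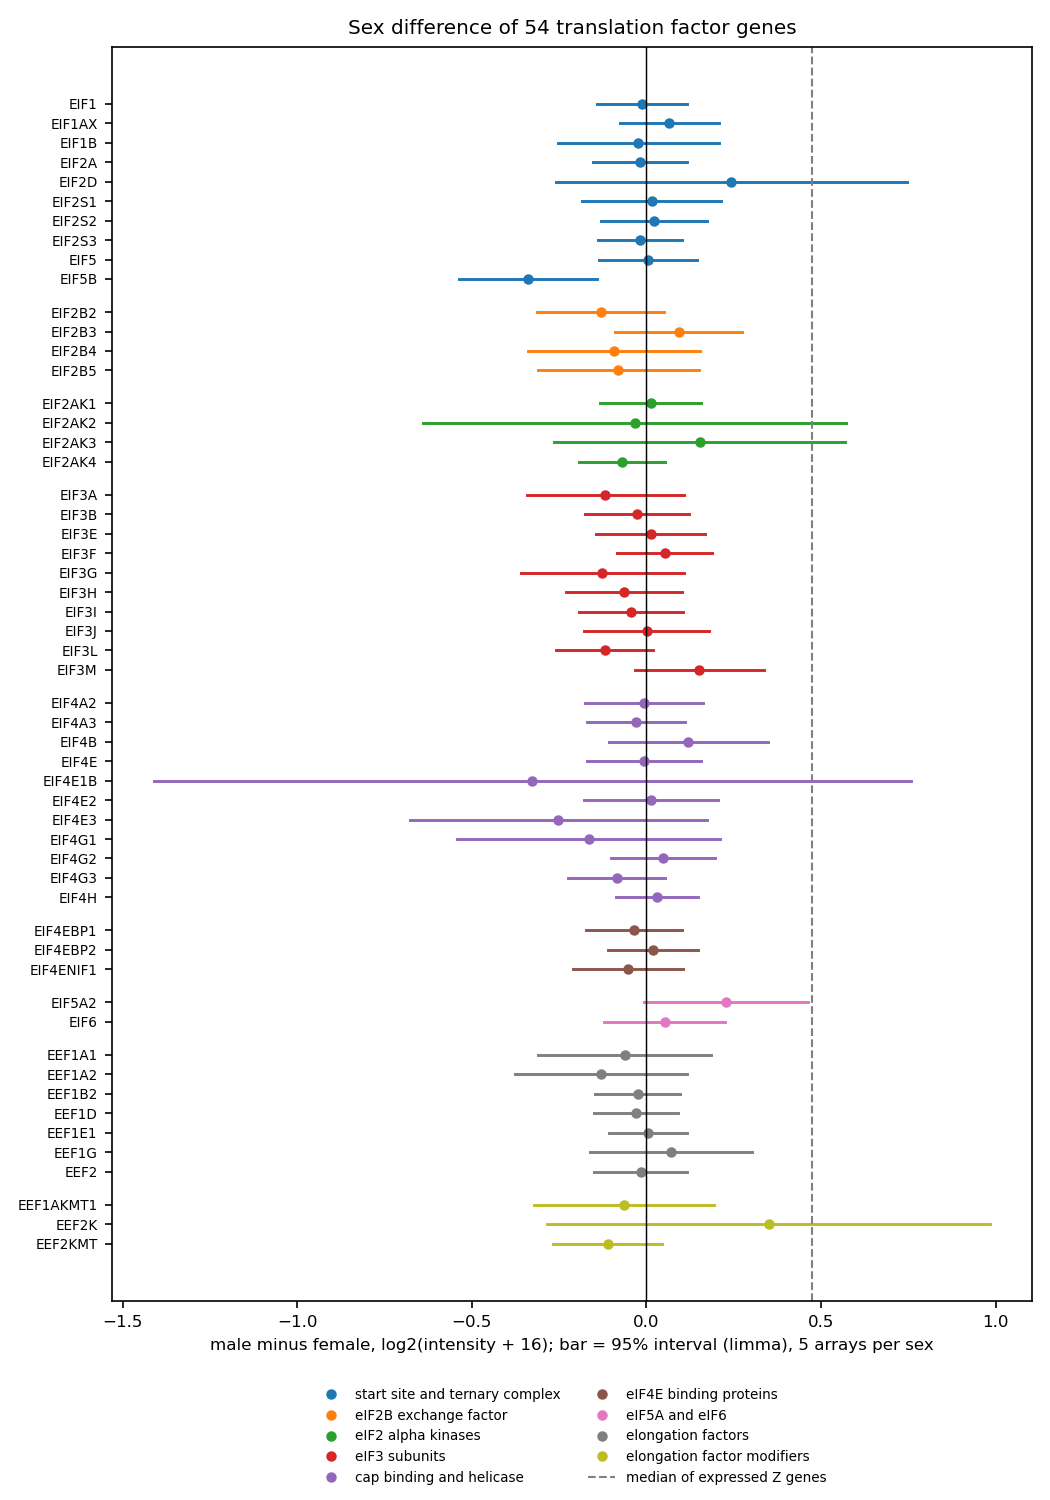
Male minus female difference on the log2(intensity + 16) scale for the 54 genes, grouped by role, with dots for the difference and bars for the 95% limma interval over 5 arrays per sex. All intervals except that of EIF5B cross 0, and the dashed line at 0.47 marks the median of expressed Z genes.

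Of the 54 members, 52 met the expressed level, and EEF2K and EIF4E1B did not. Most genes met it, 8728 of 12229 on autosomes, as the brightest probe set of a gene is set against the middle of all probe sets. No difference from other genes was tested. Probe sets with identifiers of viral sequences, which serve as background, had array medians from 5.41 on male replicate 1 to 6.32 on female replicate 3. They averaged 5.91 ± 0.29 in males and 6.09 ± 0.24 in females (SD, n = 5). For actin, 3' over 5' signal, a sign of RNA quality, averaged 1.24 ± 0.06 in males and 1.18 ± 0.07 in females. Of the fixed markers that were measured, 8 of 9 for neurons and 7 of 7 for progenitors and radial glia met the expressed level. So did 4 of 4 for glia, 5 of 5 for blood, 2 of 4 for muscle, 1 of 2 for liver, 1 of 2 for eye and 3 of 3 for choroid plexus. GAP43 was the neuron marker below it. The blood list had 10 genes, of which 5 were measured. Among these 5, ALAS1 stood in for the listed ALAS2, and the rest were hemoglobin genes. Since most genes met the expressed level, meeting it does not by itself mark a cell type. The hemoglobin gene HBA1 was at 17.08 ± 0.16 (SD, n = 5) over the male arrays and 17.20 ± 0.12 (SD, n = 5) over the female arrays. None of the marker genes passed the sex test, and their part in the results was not tested. In whole tissue, fewer cells of a type and less RNA per cell cannot be told apart.

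Start site selection and the ternary complex had 10 members, of which 0 passed, with differences from -0.34 for EIF5B to 0.24 for EIF2D. EIF5B, the GTPase that joins the ribosomal subunits, read 12.80, 12.77, 12.91, 12.94 and 12.62 in males and 13.23, 13.25, 13.09, 13.23 and 12.94 in females. Of the females, 4 lay above every male, and female replicate 5 was level with male replicate 4, the highest male. The difference was -0.34 (SE 0.09, limma adjusted p = 0.146), with an unadjusted p of 0.00349 and a 95% interval of -0.54 to -0.14. With a trended and robust variance model, limma gave an adjusted p of 0.0289, so the call depends on the variance model. Over the alternatives the adjusted p ran from 0.0289 to 0.993. The highest came from the mean over the 3 probe sets of the gene, which gave a difference of -0.02.

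The 3 probe sets of EIF5B differed in sign. The second brightest read 11.59, 11.97, 12.01, 11.88 and 11.77 in males and 11.95, 11.98, 12.12, 11.97 and 11.99 in females. The females sat in a narrow band from 11.95 to 12.12, and male replicates 2 and 3 lay inside it. Its difference was -0.16 (SE 0.10, limma adjusted p = 0.852 over all probe sets). The dimmest, with a mean of 8.84 under the expressed level, read 8.08, 8.79, 9.50, 9.59 and 9.36 in males and 8.94, 8.67, 7.99, 8.61 and 8.88 in females. Here 3 males lay above all females, and male replicate 1 was close to the lowest female. Its difference was 0.45 (SE 0.31, adjusted p = 0.877), and at the level of probe sets the brightest also did not pass (adjusted p = 0.346).

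**Figure D2:**
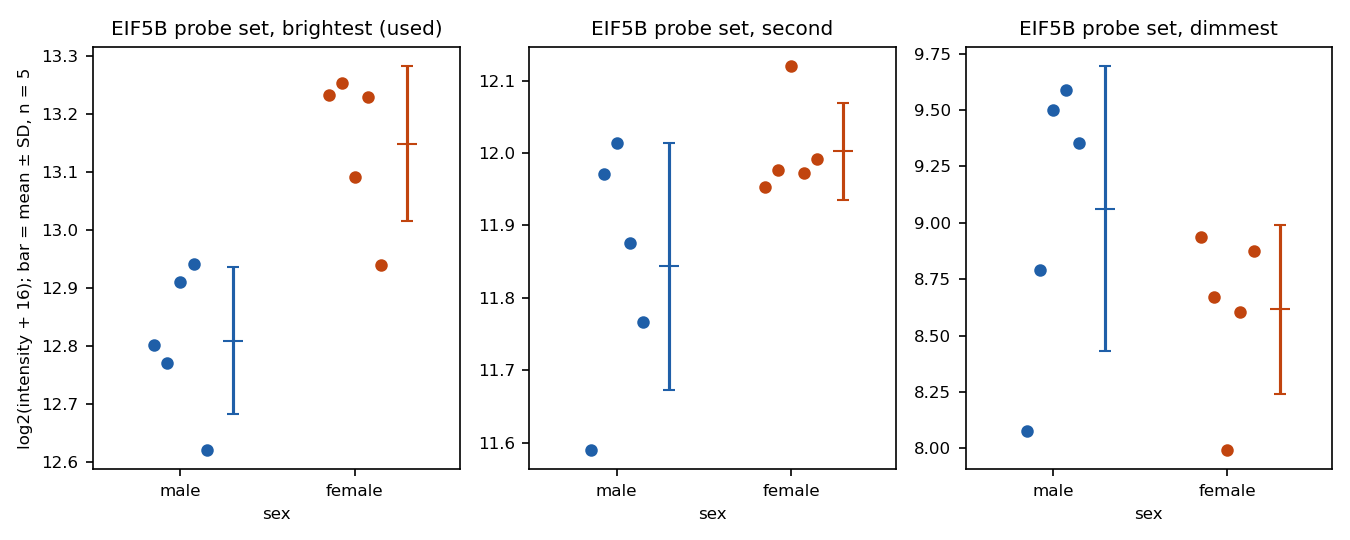
Level of the 3 EIF5B probe sets on each array, as log2(intensity + 16) by sex, with dots for arrays and bars for mean ± SD over 5 arrays, each panel on its own vertical axis. Females sit higher on the brightest probe set and lower on average on the dimmest.

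The other genes of this role had small differences. EIF1, the start codon gatekeeper, read 15.44, 15.62, 15.61, 15.65 and 15.58 in males and 15.55, 15.63, 15.59, 15.62 and 15.58 in females. Male replicate 1 was the lowest array, and the difference was -0.01 (SE 0.06, limma adjusted p = 0.981). Its paralog EIF1B read 13.81, 13.60, 13.36, 13.44 and 13.44 in males and 13.40, 13.47, 13.74, 13.52 and 13.65 in females. On this EIF1B probe set male replicate 1 was the highest array, the reverse of EIF1, and the difference was -0.02 (SE 0.10, limma adjusted p = 0.98). On the second expressed probe set of EIF1B, female replicate 5 was highest at 12.32 and male replicate 1 read 12.03. The pair correlated at 0.346, so the reversal is that of 1 probe set. The subunits of eIF2 differed by 0.02 for EIF2S1 (alpha, the phosphorylated subunit), 0.02 for EIF2S2 (beta) and -0.02 for EIF2S3. EIF5, the GTPase-activating factor for eIF2, differed by 0.0056, and EIF2A, an alternative initiator tRNA carrier, by -0.02. EIF2D, a factor that can also deliver initiator tRNA, read 12.61, 12.46, 12.56, 12.62 and 12.57 in males and 12.33, 12.66, 12.57, 12.63 and 11.40 in females. Female replicate 5 lay far under the other arrays, and the difference of 0.24 (SE 0.22, limma adjusted p = 0.898) did not pass. Without that array the difference was 0.014.

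The regulators of eIF2 held the most variable expressed member. Of 4 measured subunits of eIF2B, the exchange factor that reloads eIF2 with GTP, 0 passed, and differences ran from -0.13 for EIF2B2 to 0.092 for EIF2B3. EIF2B2 read 13.94, 13.99, 14.11, 14.02 and 14.01 in males and 14.20, 14.24, 14.26, 14.13 and 13.89 in females, with 4 females above all males and female replicate 5 lowest of all. Its difference was -0.13 (SE 0.08, limma adjusted p = 0.812). Of the 4 eIF2 alpha kinases, 0 passed. EIF2AK2, the kinase PKR that responds to double-stranded RNA, read 10.34, 9.82, 9.65, 8.79 and 9.69 in males and 9.51, 9.72, 9.42, 9.56 and 10.24 in females. Its within-sex SD of 0.46 was the largest among expressed members, with male replicate 1 highest and male replicate 4 lowest, and its difference was -0.03 (SE 0.27, limma adjusted p = 0.986). Its mean of 9.67 was also the lowest among expressed members, and dim genes varied more. The median SD over autosomal genes was 0.208 at levels from 10 to 12 and 0.093 from 14 to 16. EIF2AK3, the endoplasmic reticulum stress kinase PERK, read 10.45, 10.56, 11.08, 10.62 and 10.84 in males and 10.84, 10.14, 10.57, 10.96 and 10.27 in females, and differed by 0.15 (SE 0.18, limma adjusted p = 0.92). The heme-regulated kinase gene EIF2AK1 differed by 0.01 and EIF2AK4, the amino acid sensor GCN2, by -0.07.

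All 10 measured subunit genes of eIF3 met the expressed level, 0 passed, and differences ran from -0.13 for EIF3G to 0.15 for EIF3M. EIF3L read 14.59, 14.70, 14.69, 14.77 and 14.64 in males and 14.72, 14.78, 14.92, 14.83 and 14.75 in females. Female levels were higher on average with the ranges overlapping, and the difference was -0.12 (SE 0.06, limma adjusted p = 0.756). EIF3M, another subunit, read 15.39, 15.34, 15.43, 15.46 and 15.30 in males and 15.02, 15.41, 15.13, 15.28 and 15.32 in females. Female replicates 1 and 3 were the lowest arrays, and its difference had the opposite sign, 0.15 (SE 0.08, limma adjusted p = 0.769). The median difference over the 10 subunits was -0.035.

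Among 11 genes of cap binding and the helicase, 0 passed. EIF4E, the cap binder, read 12.70, 12.67, 12.48, 12.49 and 12.59 in males and 12.62, 12.54, 12.45, 12.64 and 12.70 in females, and the difference was -0.0068 (SE 0.07, limma adjusted p = 0.99). EIF4A2, the helicase paralog enriched in brain of mammals, read 16.66, 16.94, 16.82, 16.95 and 16.69 in males and 16.85, 16.87, 16.86, 16.80 and 16.73 in females. Male replicates 1 and 5 were the lowest arrays, and the difference was -0.008 (SE 0.08, adjusted p = 0.989). EIF4A3, the related helicase of the exon junction complex, read 15.47, 15.62, 15.65, 15.66 and 15.57 in males and 15.68, 15.70, 15.60, 15.59 and 15.53 in females, with a difference of -0.03 (SE 0.06, limma adjusted p = 0.961). EIF4B, which stimulates the helicase, read 12.26, 12.19, 12.35, 12.26 and 11.93 in males and 12.06, 11.83, 12.23, 12.14 and 12.13 in females. The ranges overlapped and the difference was 0.12 (SE 0.10, limma adjusted p = 0.881). The scaffold genes differed by -0.17 (EIF4G1), 0.05 (EIF4G2) and -0.08 (EIF4G3). The widest interval of all members was that of EIF4E1B, a cap binder known from oocytes of other vertebrates, at -1.41 to 0.76, with mean levels of 7.22 ± 0.70 (SD, n = 5) over the male arrays and 7.54 ± 0.93 (SD, n = 5) over the female arrays.

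The proteins that hold eIF4E varied little. EIF4EBP1 read 14.79, 14.81, 14.77, 14.87 and 14.93 in males and 14.78, 14.83, 14.98, 14.90 and 14.84 in females, and the difference was -0.04 (SE 0.06, limma adjusted p = 0.95). EIF4EBP2, the main such protein of mammalian brain, read 13.20, 13.25, 13.18, 13.10 and 13.26 in males and 13.15, 13.28, 13.12, 13.18 and 13.17 in females. The groups overlapped throughout, with a difference of 0.02 (SE 0.06, limma adjusted p = 0.972). EIF5A2, a paralog of the hypusine-bearing factor eIF5A, had the lowest unadjusted p among members higher in males (0.0558). It read 11.64, 11.71, 11.29, 11.58 and 11.49 in males and 11.12, 11.21, 11.30, 11.39 and 11.54 in females. Males were higher on average, male replicates 3 and 5 lay among the females, and the difference of 0.23 (SE 0.10, limma adjusted p = 0.678) did not pass.

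Of the 7 elongation factors and 3 genes of their modifiers, 0 passed. EEF1A1 read 16.68, 17.13, 17.08, 17.21 and 16.94 in males and 17.14, 17.17, 17.15, 17.02 and 16.86 in females, and EEF1A2 read 16.42, 16.69, 16.79, 16.98 and 16.69 in males and 16.87, 16.79, 17.03, 16.85 and 16.67 in females. In both genes male replicate 1 was the lowest array, and the groups overlapped. The differences were -0.06 (SE 0.11, limma adjusted p = 0.951) for EEF1A1 and -0.13 (SE 0.11, limma adjusted p = 0.88) for EEF1A2. The chosen probe sets of 19 of the 54 members are of a type prone to cross-hybridisation, and cross-hybridisation was not tested. Among them are those of EEF1A1, EEF1B2, EEF1G, EIF1AX, EIF2D, EIF2S3, EIF3E, EIF3J, EIF3M, EIF4A2 and EIF4A3. EEF2 read 16.84, 17.03, 16.99, 17.03 and 16.97 in males and 16.99, 17.01, 17.06, 16.99 and 16.90 in females, and differed by -0.02 (SE 0.06, limma adjusted p = 0.976). EEF1B2, a nucleotide exchange subunit for eEF1A, read 16.04, 16.11, 16.11, 16.24 and 16.13 in males and 16.14, 16.18, 16.12, 16.17 and 16.14 in females, with a difference of -0.03 (SE 0.05, limma adjusted p = 0.961). EEF1E1, a scaffold protein of the tRNA synthetase complex despite its name, had the smallest within-sex SD of all members, 0.037. Its 95% interval of -0.11 to 0.12 was the only 1 of the 54 inside a 1.1-fold change either way, as were 1.16% of expressed autosomal genes. EEF2K, the kinase that inactivates eEF2, was below the expressed level and read 8.85, 9.44, 8.02, 9.12 and 8.85 in males and 8.88, 8.10, 8.04, 8.55 and 8.96 in females. Arrays of both sexes spanned most of the range, and its difference of 0.35 (SE 0.28, limma adjusted p = 0.877) is imprecise.

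Other probe sets of the same genes gave no call. The 54 genes had 94 probe sets, 0 passed over all probe sets, and 1 (EIF5B) had an unadjusted p under 0.05. In 1 of the 94, the second brightest of EIF1AX, all males lay above all females. Shares of all tested probe sets with that order, or with an unadjusted p under 0.05, are not given here. Neither count of 1 in 94 can therefore be judged against other probe sets. The second brightest of EIF1AX read 14.75, 14.74, 14.74, 14.73 and 14.71 in males and 14.62, 14.68, 14.63, 14.64 and 14.60 in females, so the groups did not overlap although those of the brightest probe set did. The second brightest is also of the type prone to cross-hybridisation. Its difference was 0.10 (SE 0.07, limma adjusted p = 0.866 over all probe sets), and the next probe set of EIF1AX, at a mean of 10.47, differed by -0.35 (SE 0.19, adjusted p = 0.805). The 16 probe sets below the expressed level gave the widest differences, from -0.96 for a dim probe set of EIF4G2 (SE 0.61) to 0.84 for one of EIF3B (SE 0.54), beside 0.047 and -0.027 for the chosen ones.

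Levels varied little between arrays of a sex, and how much of that variation was shared depended on the gene and on the scaling. The median within-sex SD of expressed members was 0.10, beside 0.165 over expressed autosomal genes, and both sets varied less at higher levels up to 16. At levels from 14 to 16, the median SD was 0.080 over 22 members and 0.093 over 1014 autosomal genes, and from 12 to 14 it was 0.111 over 16 members and 0.124 over 3109. After subtracting sex means, the median Pearson correlation over pairs of the 49 expressed autosomal members was 0.082 across 10 arrays, beside 0.0020 over pairs of 8728 expressed autosomal genes. The first principal component held 32.6% of the members' variance and 23.8% of that of all expressed autosomal genes. These shares come from 49 and 8728 genes, so they are not on equal terms. A median this weak is no finding. As a yardstick, 29 pairs of expressed probe sets of the same member had a median correlation of 0.097, from -0.71 for EIF4E to 0.81 for EIF2B3. Of these pairs, 4 were above 0.5.

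A subset of members, mostly bright, varied between arrays along with the ribosomal protein genes. The 60 expressed autosomal genes of cytosolic ribosomal proteins had a median pairwise correlation of 0.767, and their index per array is the median of each gene's value minus its mean over arrays. In order of replicate the index was -0.21, -0.0035, -0.0017, 0.16 and -0.076 in males and 0.024, 0.025, 0.11, 0.058 and -0.054 in females. Male replicate 1 was the lowest array and male replicate 4 the highest. Of 52 expressed members, 13 had a correlation above 0.7 with this index across the 10 arrays after subtracting sex means. Over other expressed autosomal genes 5.64% of 8619 did, and that share depended on level. At levels from 14 to 16, 8 of 22 members were above 0.7, beside 14.9% of 988 other genes, and from 16 up, 5 of 6 members, beside 57.0% of 79. No difference from other genes was tested. Among the 7 elongation factors there were 5 (EEF1A2 at 0.954, EEF1A1 at 0.894, EEF2 at 0.875, EEF1B2 at 0.781 and EEF1G at 0.726). Among the 10 eIF3 subunits there were 6 (EIF3G at 0.902, EIF3L at 0.846, EIF3A at 0.842, EIF3E at 0.842, EIF3I at 0.778 and EIF3H at 0.756). EIF4A2 (0.834) and EIF1 (0.819) made up the rest. These correlations share 10 arrays and their scaling, and are given as a description.

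Other members ran against the index. EIF2AK2, whose mean of 9.67 was close to the expressed level, had a correlation of -0.935, EIF4E of -0.735 and EIF3J, a loosely bound eIF3 subunit, of -0.725. Without male replicates 1 and 4 these were -0.773 for EIF2AK2, -0.672 for EIF4E and -0.051 for EIF3J, so the value of EIF3J rested on those arrays. EIF3J read 14.03, 13.72, 13.76, 13.67 and 13.85 in males and 13.90, 13.73, 13.86, 13.76 and 13.78 in females, with male replicate 1 highest. On its second expressed probe set male replicate 1 was lowest, at 11.64, and the pair correlated at -0.45. Such pairs were at -0.71, 0.091 and 0.168 for EIF4E, 0.029 for EIF4A2 and 0.096 for EIF3A. They were at 0.303 for EEF1G, 0.406 for EEF1B2 and 0.758 for EIF3E. A correlation with the index is thus that of 1 probe set per gene. Of the 52 members, 13 had a correlation with the index below 0. Over 8619 other expressed autosomal genes the median correlation was 0.043, near 0. Shares of those genes below 0, or as low as the members named here, are not given. The negative values are therefore no finding about the members. The eIF3 genes were split, with a median of 0.767 over the 10, 6 above 0.7, EIF3J negative, and EIF3F at 0.0028 and EIF3M at 0.0725 near 0. The 4 eIF2 alpha kinases had a median of -0.12 and the 4 eIF2B subunits of 0.516.

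**Figure D3:**
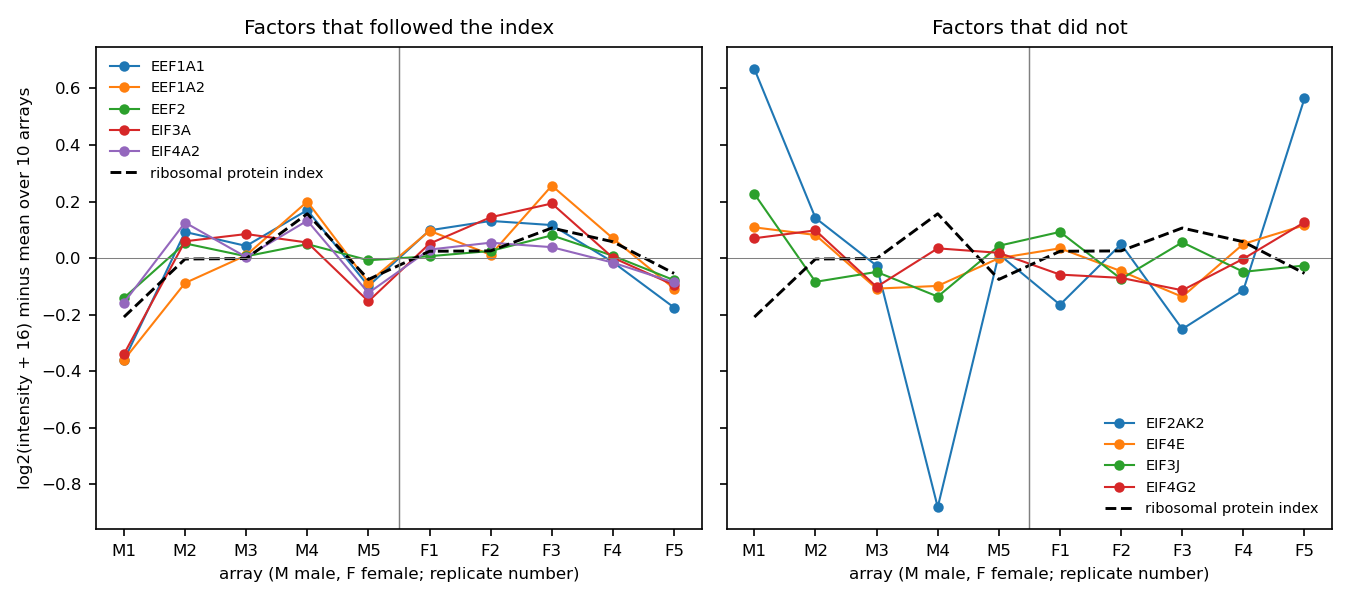
Level of named genes on each array minus the gene's mean over 10 arrays, in log2(intensity + 16), for male (M) and female (F) replicates, with the ribosomal protein index as a dashed line. EEF1A1, EEF1A2, EEF2, EIF3A and EIF4A2 are lowest or near lowest on male replicate 1, while EIF2AK2 is highest there and lowest on male replicate 4.

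The same arrays stood apart for the brightest genes of any kind. Over 79 other autosomal genes with a mean level of at least 16, the index was lowest on male replicate 1 at -0.17 and highest on male replicate 4 at 0.14, while over genes from 12 to 14 it stayed between -0.016 and 0.015. Over other genes from 14 to 16, the levels of 8 of the 13 members, it ran from -0.024 on male replicate 5 to 0.036 on male replicate 4, where the index of the eIF3 genes ran from -0.11 on male replicate 1 to 0.11 on male replicate 4. The first is a median over 988 genes and the second over 10, so their ranges are not on equal terms. Whether the eIF3 genes moved beyond other genes of their level was not tested. With sex means subtracted from each gene first, the ribosomal protein index and that of the 79 genes at 16 or more had a correlation of 0.932 across the 10 arrays. Some of the 13 members followed those 79 genes more closely than the ribosomal protein index, such as EIF1 (0.90) and EEF1B2 (0.873). Others followed them less closely, such as EEF1A2 (0.831) and EIF3H (0.606). Without male replicates 1 and 4, 10 members were above 0.7 with the ribosomal protein index, beside 7.14% of the other genes, but they were partly different members. By level there were 2 of 16 members from 12 to 14, beside 9.57% of other genes, and 4 of 22 from 14 to 16, beside 10.9%. From 16 up there were 3 of 6, beside 25.3%. Of the 13, 6 remained. They were EIF3L, EIF3A and EIF3G, with EEF1A2 at 0.858, EEF2 at 0.839 and EEF1A1 at 0.751 among the elongation factors. The 7 that fell below 0.7 were EIF4A2 at 0.644, EIF3E at 0.635, EIF3H at 0.568, EIF3I at 0.45, EIF1 at 0.334, EEF1G at 0.167 and EEF1B2 at -0.255. The 4 that were above it only without those arrays were EIF2B2 at 0.775, EIF3B at 0.76, EIF2D at 0.753 and EIF2B5 at 0.729. EIF4G1 turned from 0.649 to -0.753. After quantile normalization, which by construction gives all arrays the same set of values and so leaves the brightest probe sets little room, 3 were above 0.7 (EIF3H, EIF4G3 and EIF2D), beside 2.97% of other genes. EEF1A2 was then at 0.654, EEF1A1 at 0.0958, EEF2 at -0.311, EIF3A at 0.297 and EIF4A2 at -0.507, while EIF4E at -0.749 and EIF2AK2 at -0.649 stayed negative and EIF3J was at 0.0544. The part of array scaling in the shared variation was not tested beyond these values.

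**Figure D4:**
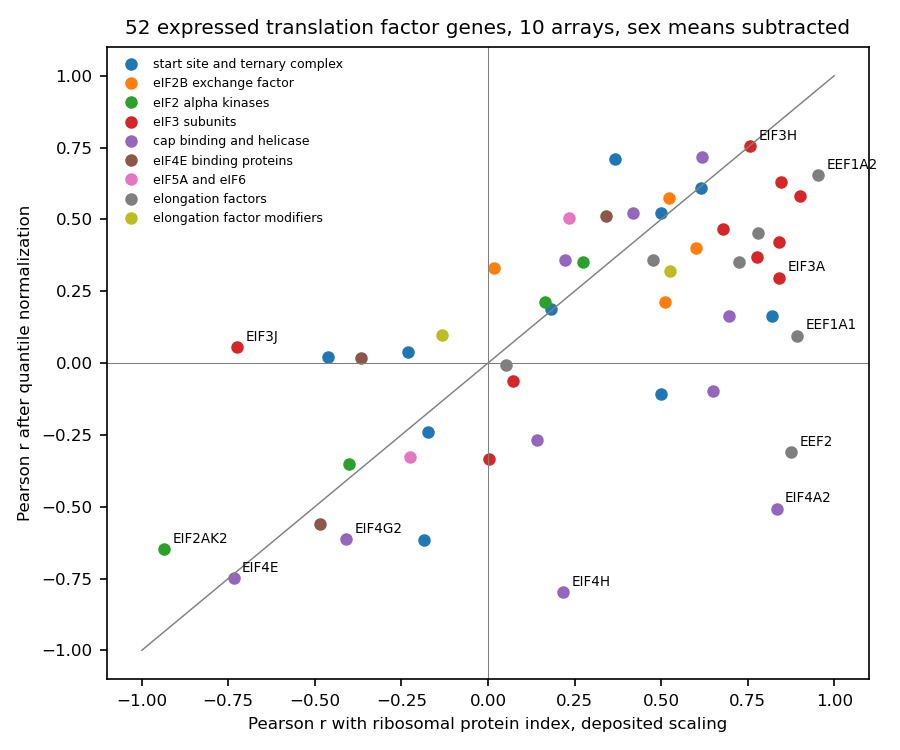
Correlation of each of the 52 expressed members with the ribosomal protein index across 10 arrays after subtracting sex means, with the deposited scaling on the horizontal axis and after quantile normalization on the vertical axis. Points on the grey line would be equal under both, and EEF2 and EIF4A2 are among those that change sign.

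The manufacturer's control probe sets for eEF1A were not in the tested table. Their name does not tell EEF1A1 from EEF1A2, and they are also of the type prone to cross-hybridisation. The 3' control probe set read 17.07, 17.47, 17.42, 17.51 and 17.25 in males and 17.45, 17.42, 17.46, 17.34 and 17.19 in females. Male replicate 1 was lowest and male replicate 4 highest, and the 5' and middle control probe sets had the same arrays at their ends. The 3' to 5' ratio of these controls averaged 1.51 ± 0.06 in males and 1.48 ± 0.04 in females, from 1.44 to 1.58 over the 10 arrays.

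Beyond the factors themselves, the listed translation genes that passed the sex test were all on Z. Whether translation genes on Z differ from other Z genes was not tested, and 9 genes are too few to set them apart. Of 99 genes in 6 lists of related function, 83 were measured, 9 on Z and 74 on autosomes. On Z 4 of 9 were higher in males, beside 33.2% of all Z genes, and on autosomes 0 of 74 passed, beside 18 of 12229. Among termination, recycling and rescue genes 1 of 10 passed, PELO, which frees stalled ribosomes. PELO was at 13.87 ± 0.09 (SD, n = 5) over the male arrays and 12.82 ± 0.14 (SD, n = 5) over the female arrays, which differ by 1.05 (SE 0.08, limma adjusted p = 0.00013). Of 15 poly(A) binding and helicase genes 1 passed, DHX29, a helicase that aids scanning through structured leaders, at 0.72 (SE 0.15, limma adjusted p = 0.048). Of 20 cytosolic aminoacyl-tRNA synthetase genes 1 passed, TARS, the threonyl-tRNA synthetase, at 0.88 (SE 0.06, limma adjusted p = 0.00013). Of 12 selenocysteine and diphthamide genes 1 passed, SECISBP2, which recodes UGA to selenocysteine, at 0.83 (SE 0.09, limma adjusted p = 0.000882). All 5 males lay above all 5 females in these 4 genes and in NCBP1 and NARS, which did not pass, so in 6 of 9, beside 42.1% of all Z genes.

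Of 18 genes of signalling and the stress response and 8 mitochondrial translation factors, 0 passed. The other Z genes in the lists had differences of 0.76 (GFM2), 0.32 (PAIP1), 0.25 (NCBP1), 0.20 (NARS) and 0.19 (RPS6). The median over the 9 Z genes was 0.72 and over the 74 autosomal genes 0.0041, beside -0.019 over the 54 factors, of which 0 were placed on Z. The 2 widest autosomal differences, of NCBP2 and GCN1, both below the expressed level, were -1.45 (SE 0.73, limma adjusted p = 0.745) and 1.20 (SE 0.59, limma adjusted p = 0.722).

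**Figure D5:**
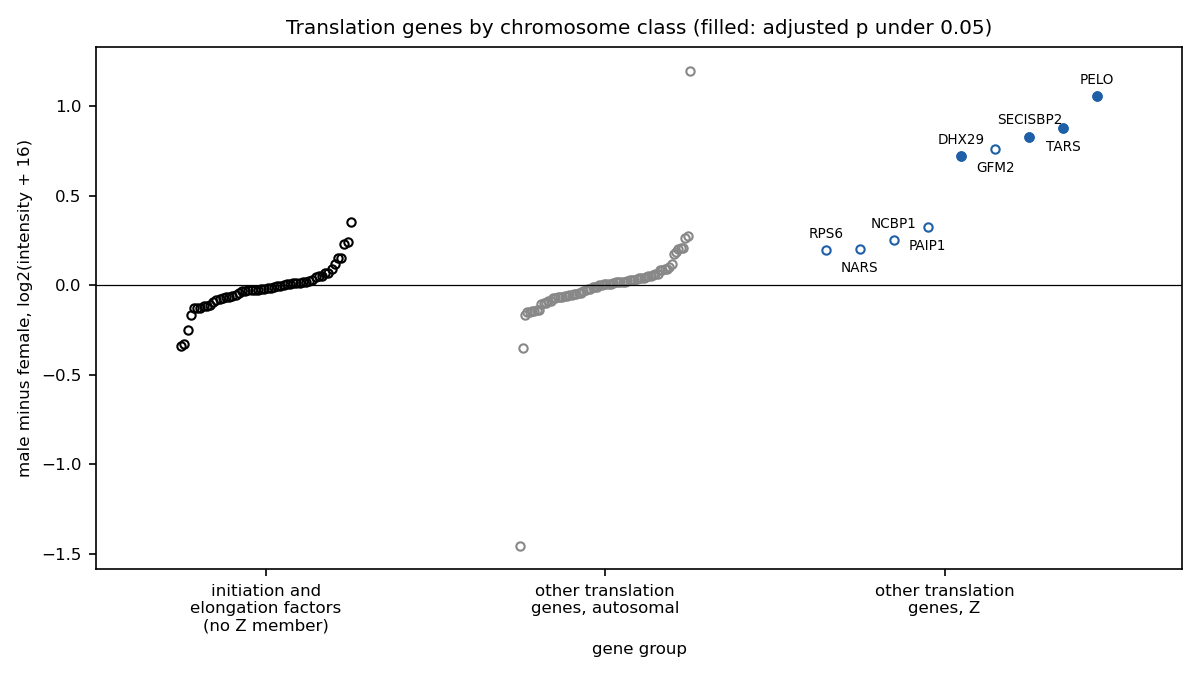
Male minus female difference on the log2(intensity + 16) scale for the 54 initiation and elongation factor genes, 74 other autosomal translation genes and 9 on Z, with filled points for adjusted p under 0.05. The 9 Z genes all lie above 0, and the filled points are PELO, TARS, SECISBP2 and DHX29.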

How the data were processed

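The authors deposited a linear intensity, 1 for each of 38535 probe sets on 10 arrays. How probes were summarised is not stated in the labels or file headers. The mean without the highest and lowest 2% of values was 2500 on every array, so the authors had scaled the deposited intensities per array. No normalization was added before taking log2(intensity + 16), and fold changes of dim genes are understated on this scale. Leaving out 96 control probe sets left 38439, of which 27168 had 1 gene, 177 had several and were not named, and the rest had none. Platform gene identifiers were matched to RefSeq genes (GRCg7b) for symbols and chromosomes (12872 of 13051 genes by identifier, 1 by accession, 178 not matched). No coordinates or sequences are given.

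Sexes were compared over all genes by lmFit and eBayes of limma (version 3.58.1, R version 4.3.3, Benjamini-Hochberg adjustment, threshold 0.05, tested on simulated data). The number of arrays, 5 per sex, limits the precision. All members may be named, with values by array for those with the lowest p in each direction and for a list of central factors. Genes drawn in the plots or named for their correlation with ribosomal protein genes, and the 2 autosomal genes named for their size, were chosen after their values were seen. Alternatives covered normalization, pseudocount, filter, probe set choice, variance model, array weights, a replicate block and leaving out each array. The members, lists and tests were chosen with earlier results of these data known. EIF2B1, EIF3D, EIF3K, EIF4EBP3 and EIF5A were not analysed here.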

Additional observations from a re-analysis of the deposited data

Results flagged for a closer look

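EIF2D on female replicate 5 stood apart from the other females. It read 11.40, where the other 4 females read 12.33 to 12.66, a gap of 0.736 of the range over the 5 arrays. The second probe set of EIF2D read 9.52 on that array, the highest of the females. Over the members, 108 groups of 5 arrays were examined and 1 passed the bound of Dixon's test. Chance alone passes it in about 1 group in 20, so 1 in 108 is no more than chance would give.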

How the results depend on the processing

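The counts of members higher in males (0) and in females (0) held under every alternative run, except that the trended and robust variance model called 1 gene, EIF5B, higher in females. Leaving out 1 array at a time gave 0 in each direction, and moved the EIF5B difference between -0.39 and -0.29 (limma adjusted p 0.0628 to 0.328). With the title letter as a replicate block, 0 members passed in either direction, and over all genes the calls went from 207 to 0 higher in males and from 27 to 1 higher in females. That block also takes male and female replicate 1 out of the comparison, since neither has a partner of its letter. The 8 other arrays without the block, a fit added after seeing the data, gave 0 members in either direction, and 143 and 17 calls over all genes. Same-lettered arrays correlated at 0.0026 to 0.132 over expressed genes and at -0.12 to 0.325 over the members, and 4 of 8 correlated best with their own letter. These values do not settle whether the letters mark pairs, and the main fit did not take them as pairs. Of 1126 values of single members under alternatives, 1104 stayed within the within-sex SD with no change of call. The 21 that moved more all came from a change of probe set. The remaining 1 was the EIF5B call under the trended and robust variance model. Some alternatives, such as another variance model or the filter on expressed genes, leave a difference unchanged by construction. The count of 1104 is therefore a weak measure of stability. The median member correlation of 0.082 became 0.0083 after quantile normalization, 0.043 with the mean over probe sets, 0.041 without probe sets prone to cross-hybridisation and 0.062 without subtracting sex means, and ran from 0.064 to 0.101 with 1 array left out. The median correlation of members with the ribosomal protein index was 0.393, and became 0.20 after quantile normalization and 0.312 without male replicates 1 and 4, both chosen after seeing the data. The planned index of Z against autosomal members could not be computed with 0 members on Z, so none of its alternatives was run.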
